A study of Homo sapiens with 6 samples.

Results

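The histone genes measured in polyadenylated RNA of HaCaT keratinocytes were taken from the deposited expression table by gene name. Names starting with HIST, a digit and H gave the replication-dependent genes of the histone clusters, and names starting with H2AF, H3F3 or H1F gave the replacement histones. Names ending in P and a number, which mark pseudogenes, were left out. The rule found 33 of the 22152 genes in the table: 21 replication-dependent genes, 11 replacement genes and H1FX-AS1, an antisense RNA that carries the name of a histone gene without being one.

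HaCaT is a spontaneously immortalised human keratinocyte line. Cells were transfected with 1 nM of a synthetic miR-21-3p (miR-21-3p mimic, n = 3) or with 1 nM of a negative control miRNA (NC mimic, n = 3), and RNA was taken 48 h later from biological replicates that the sources used here do not describe further. A mimic is a short RNA made to act as the mature miRNA, so the comparison asks what a raised level of miR-21-3p does to the transcriptome. All 6 libraries were made from poly(A) selected RNA, and all comparisons below are of miR-21-3p mimic with NC mimic.

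Histones package DNA into nucleosomes, which hold the core histones H2A, H2B, H3 and H4, while linker histone H1 binds between them. The replication-dependent genes lie in clusters and are transcribed mainly in S phase, when new DNA needs new nucleosomes. Their mRNAs usually end just after a stem-loop that is bound by the stem-loop binding protein SLBP, and have no poly(A) tail. Some of these genes also give polyadenylated mRNA, by cleavage at a poly(A) signal beyond the stem-loop, which is known from cells that differentiate or leave the cycle. Replacement histones are made throughout the cell cycle from genes outside the clusters, mostly as ordinary polyadenylated mRNA, with H2AFX as an exception that has a stem-loop mRNA too. A poly(A) selected library therefore samples the replication-dependent genes mainly through their polyadenylated transcripts.

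Values were normalised counts, that is, reads per gene divided by the size factor of the library, given to 3 significant digits. The reads counted to genes were estimated from the values. The estimates were about 24405508, 24528233 and 26171344 in NC mimic replicates 1, 2 and 3. In miR-21-3p mimic replicates 1, 2 and 3 they were about 24808290, 24981070 and 27985931. These totals sum values rounded to 3 significant digits, so they are approximate and not exact to the last digits. None of the 33 members was at 0 in all 6 libraries, in all 3 libraries of a group or in any single library, and all 33 passed the filter of a mean normalised count of at least 10. This count of 0 has a limited reach. The first 14291 genes of the table all had a mean of at least 36.0, and genes below that level stood only in a closing block of 7861 genes in order of identifier, of which 5278 were at 0 in all 6 libraries. All 33 members stood above that level. GENCODE release 29 has 75 gene names of the replication-dependent pattern, and the 54 beyond the 21 described were not analysed here. Counts and medians over the 21 do not describe the family as a whole.

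NC mimic replicate 2 stood apart from the other NC mimic libraries. On the first principal component of the 10682 genes with a mean of at least 200, which held 56.3% of the variance, it lay at 0.85, while NC mimic replicates 1 and 3 lay at 13.8 and 9.93. The miR-21-3p mimic libraries lay at −7.56, −4.32 and −12.7. NC mimic replicate 2 was thus the NC mimic library nearest to the miR-21-3p mimic libraries, and more genes were called without it. Results are therefore given with all 6 libraries and, where the call or count moves, without this library. A call gained only without it depends on that choice.

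The signal of the replication-dependent genes in these poly(A) selected libraries was lower with the miR-21-3p mimic. Their normalised counts summed to 9043, 7846 and 8957 in NC mimic replicates 1, 2 and 3, and to 6798, 7039 and 6265 in miR-21-3p mimic replicates 1, 2 and 3. Every miR-21-3p mimic library lay below every NC mimic library, with NC mimic replicate 2 the lowest of its group. The group means were 8616 ± 668 and 6701 ± 396 (SD, n = 3 each), a ratio of 0.778. In bulk RNA, fewer cells expressing a gene and less RNA per cell cannot be told apart. The 11 replacement genes summed to 63185, 67790 and 65321 in the NC mimic libraries and to 64852, 65955 and 64834 in the miR-21-3p mimic libraries. Here the groups overlapped, and the ratio of the means was 0.997. This level sum joins opposite directions, since H1F0 held 45.4% of it and lay lower in every miR-21-3p mimic library. The other 10 replacement genes summed to 32785, 35290 and 34421 against 36552, 37455 and 37334 normalised counts, without overlap and with a ratio of 1.09 (1.07 to 1.10 without any one library, and above 1 after both other scalings), a sum taken after the values were seen. For each 100 reads of replacement histones there were 14.3, 11.6 and 13.7 reads of replication-dependent histones in the NC mimic libraries and 10.5, 10.7 and 9.66 in the miR-21-3p mimic libraries.

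By gene, 9 of 21 replication-dependent members fell (limma on log2 of the normalised count plus 1, Benjamini-Hochberg adjusted p under 0.05 over 14782 genes), against 4.67% of all genes tested that fell. None of the 21 rose by limma, against 6.15% of all genes, and none rose at an unadjusted p under 0.05 or by edgeR or DESeq2. The fold changes of all 21 were below 0 with all 6 libraries, also after scaling by library size alone and after TMM scaling, and 20 of 21 were without NC mimic replicate 1 and without miR-21-3p mimic replicate 2. Their median log2 fold change was −0.35, beside 0.0045 over all genes tested. The 3 miR-21-3p mimic libraries lay below the 3 NC mimic libraries for 15 of 21 members, against 14.8% of all genes tested, and above them for 0 of 21, against 16.5%. Of the replacement genes 2 of 11 rose and 0 of 11 fell by limma, and the miR-21-3p mimic libraries lay above the NC mimic libraries for 4 of 11 and below them for 1 of 11. One replacement gene was lower at an unadjusted p under 0.05, and the same gene, H1F0, was past the adjusted threshold by edgeR and by DESeq2. The median log2 fold change of the replacement genes was 0.11, or 0.061 without NC mimic replicate 1, with 9 of 11 values above 0, also after scaling by library size alone and after TMM scaling.

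Single libraries had a large share in these counts. The count of replication-dependent genes that fell was 2 without NC mimic replicate 1, 10 without NC mimic replicate 2, 1 without NC mimic replicate 3, 2 without miR-21-3p mimic replicate 1, 6 without miR-21-3p mimic replicate 2 and 2 without miR-21-3p mimic replicate 3. Of the 10 without NC mimic replicate 2, 7 were among the 9. The number of replacement genes that rose was 4 without NC mimic replicate 2, 2 without miR-21-3p mimic replicate 2 and 0 without any one of the other 4 libraries. Over all genes 909 rose and 691 fell with all 6 libraries. Without NC mimic replicates 1, 2 and 3 in turn, 316, 1629 and 98 rose and 229, 1334 and 81 fell. Without miR-21-3p mimic replicates 1, 2 and 3 in turn, 147, 899 and 203 rose and 132, 641 and 165 fell. The ratio of the summed replication-dependent counts moved less, between 0.745 and 0.803. Reads recovered from the values are approximate for large values. On these reads edgeR called 10 of the 21 lower, against 5.3% of all genes lower and 6.06% higher. DESeq2 called 8 of the 21 lower, all of them among the 9, against 5.02% lower and 6.15% higher. HIST3H2BB was the member that DESeq2 did not call.

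**Figure D1:**
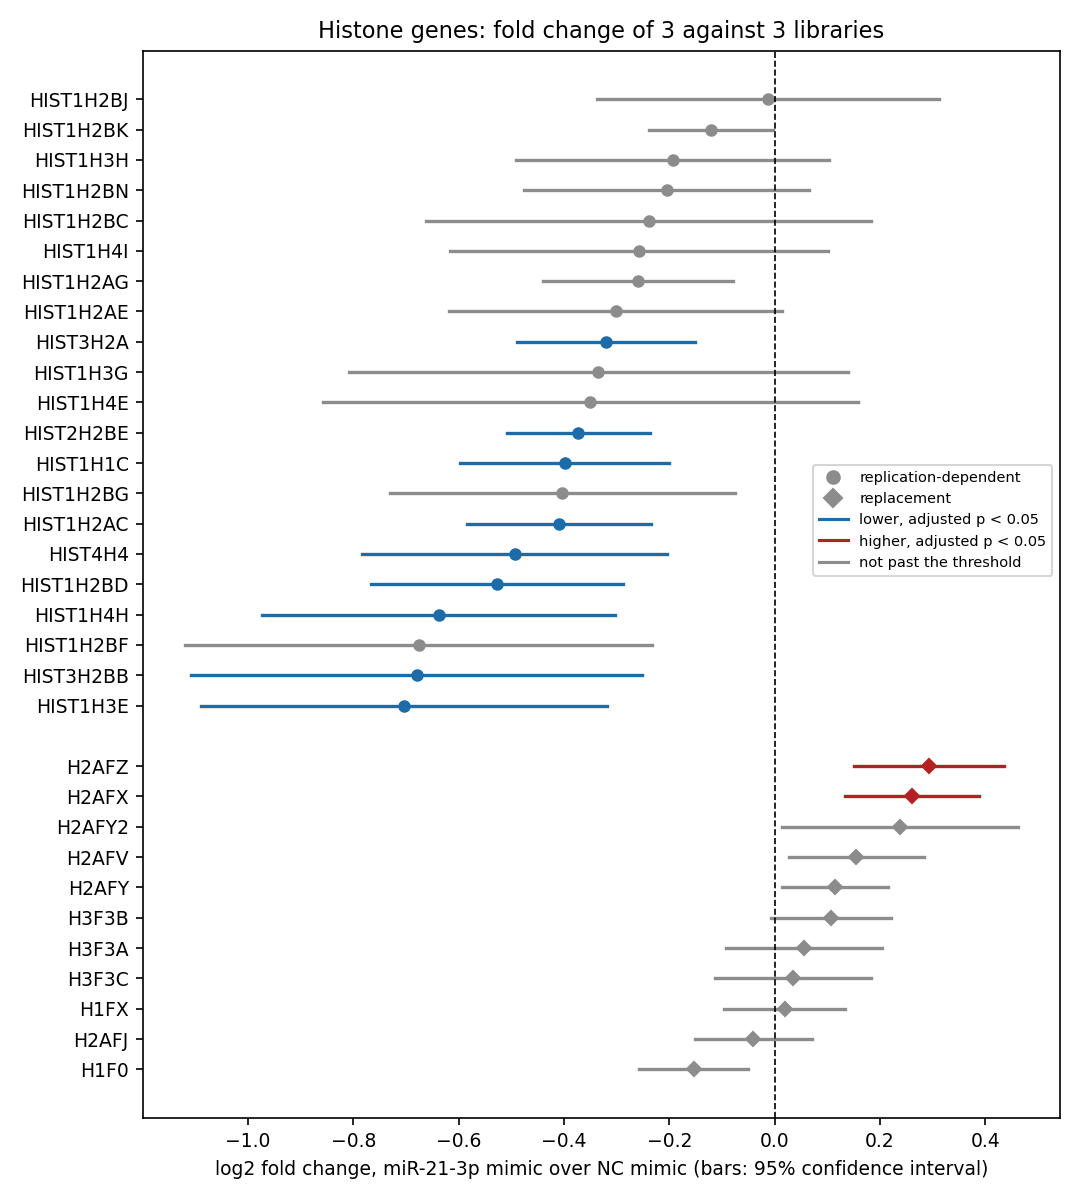
Log2 fold change of miR-21-3p mimic over NC mimic for the 21 replication-dependent genes (circles) and the 11 replacement genes (diamonds), with 95% confidence intervals from limma. The 9 blue members fell, the 2 red members rose, and grey members did not pass the adjusted threshold.

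HIST1H2AC (identifier ENSG00000180573) is an H2A gene of the HIST1 cluster. Its normalised counts were 2060, 1850 and 2210 in NC mimic replicates 1 to 3 and 1600, 1660 and 1350 in miR-21-3p mimic replicates 1 to 3, so that the groups did not overlap. The log2 fold change was −0.41 (SE 0.081, limma adjusted p = 0.011), a fold of 0.752. It lost the call only without NC mimic replicate 3 (adjusted p = 0.068). HIST3H2A, an H2A gene of another cluster, had 778, 660 and 750 normalised counts with the NC mimic and 553, 629 and 568 with the miR-21-3p mimic. Its groups were also apart, with a log2 fold change of −0.32 (SE 0.078, adjusted p = 0.024). HIST3H2A lost its call without NC mimic replicates 1 and 3 (adjusted p = 0.0874 and 0.11) and without miR-21-3p mimic replicates 1 and 3 (0.112 and 0.0864). HIST1H2AG had 444, 457 and 518 against 409, 409 and 366 normalised counts. It lay lower in every miR-21-3p mimic library, but missed the threshold (log2 fold change −0.26, adjusted p = 0.063). HIST1H2AG was past the threshold in 1 of 15 alternatives, without NC mimic replicate 2 (adjusted p = 0.0434). HIST1H2AE, with 68.2 to 103 normalised counts over the 6 libraries, gave −0.30 (95% interval −0.62 to 0.013).

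The H2B genes had the most members, 9, of which 3 fell, against 4.67% of all genes. Differences between these members were not tested. HIST2H2BE (identifier ENSG00000184678) had 923, 890 and 911 normalised counts in the NC mimic libraries and 718, 735 and 652 in the miR-21-3p mimic libraries. The NC mimic libraries lay within a narrow range and the groups were well apart (log2 fold change −0.37, SE 0.063, adjusted p = 0.0068). It was the only one of the 9 whose call held without any one of the 6 libraries (adjusted p 0.0017 to 0.047). HIST1H2BD had 1270, 898 and 1130 against 771, 828 and 673 normalised counts. NC mimic replicate 2 was close to the highest miR-21-3p mimic library, and the log2 fold change was −0.53 (SE 0.11, adjusted p = 0.014). HIST1H2BD lost its call without NC mimic replicates 1 and 3 (adjusted p = 0.0522 and 0.0711) and without miR-21-3p mimic replicates 1 and 3 (0.0589 and 0.0622). HIST3H2BB had 51.1, 53.6 and 40.0 against 34.7, 26.6 and 27.8 normalised counts. Its mean of 39.0 was just above the floor of the table, and the groups did not overlap (log2 fold change −0.68, SE 0.20, adjusted p = 0.046). HIST3H2BB lost its call without NC mimic replicates 1, 2 and 3 (adjusted p = 0.138, 0.0831 and 0.0822) and without miR-21-3p mimic replicates 1, 2 and 3 (0.078, 0.0965 and 0.136). It also did so with no filter (0.0516), with scaling by library size alone (0.0501), with the replicate number as a block (0.0603) and by DESeq2 (0.117), and was past the threshold in 4 of 14 alternatives. HIST1H2BF lay just on the other side of the threshold, with 60.4, 55.6 and 82.0 against 39.8, 32.8 and 50.3 normalised counts (log2 fold change −0.68, adjusted p = 0.053; 0.0213 without NC mimic replicate 2). Without any one of the other libraries HIST1H2BF stayed short of the threshold (adjusted p 0.0639 to 0.219). It was called lower by edgeR and with the replicate number as a block, and is named here after its values were seen. HIST1H2BK had 1130, 1050 and 1080 against 1000, 977 and 1020 normalised counts. Its groups did not overlap, but the difference was small (log2 fold change −0.12, 95% interval −0.24 to −0.0030, adjusted p = 0.16). HIST1H2BJ, at 120, 96.8 and 93.7 against 103, 87.1 and 118 normalised counts, had overlapping groups and the value nearest to 0 (−0.013, 95% interval −0.34 to 0.31), and HIST1H2BN, with 86.0 to 113 normalised counts, gave −0.21 (adjusted p = 0.30).

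Of the H3 and H4 genes, which encode the histones that form the core tetramer, 3 fell, against 4.67% of all genes. HIST1H3E had 107, 68.0 and 101 normalised counts with the NC mimic and 58.1, 53.3 and 53.8 with the miR-21-3p mimic. It had the largest fall of the 9 (log2 fold change −0.70, SE 0.18, adjusted p = 0.028), with NC mimic replicate 2 between the other NC mimic libraries and the miR-21-3p mimic libraries. HIST1H4H had 241, 153 and 216 against 137, 115 and 133 normalised counts, again with NC mimic replicate 2 next to the miR-21-3p mimic libraries (log2 fold change −0.64, SE 0.15, adjusted p = 0.023). HIST4H4, which stands alone outside the larger clusters, had 148, 174 and 155 against 94.8, 129 and 116 normalised counts. Here NC mimic replicate 2 was the highest library, and the log2 fold change was −0.49 (SE 0.13, adjusted p = 0.036). The 3 H3 genes together summed to 251, 190 and 238 against 191, 159 and 157 normalised counts, with overlap between the groups, and the 4 H4 genes to 484, 428 and 484 against 313, 343 and 321, without overlap. The linker histone gene HIST1H1C had 1110, 889 and 1020 against 762, 848 and 679 normalised counts. The groups did not overlap and the log2 fold change was −0.40 (SE 0.091, adjusted p = 0.019). HIST1H3E lost its call without NC mimic replicates 1 and 3 (adjusted p = 0.112 and 0.125) and without miR-21-3p mimic replicates 1, 2 and 3 (0.0815, 0.0544 and 0.0887). HIST1H4H lost its call without NC mimic replicates 1 and 3 (adjusted p = 0.0958 and 0.109) and without miR-21-3p mimic replicates 1, 2 and 3 (0.0709, 0.0575 and 0.0676). HIST4H4 lost its call without NC mimic replicates 1, 2 and 3 (adjusted p = 0.0694, 0.0539 and 0.11) and without miR-21-3p mimic replicates 1 and 3 (0.144 and 0.0886). HIST1H1C lost its call without NC mimic replicates 1 and 3 (adjusted p = 0.0769 and 0.0867) and without miR-21-3p mimic replicates 1 and 3 (0.0775 and 0.0817). By place, the genes that fell were 5 of 17 members of the HIST1 cluster, 1 of 1 of HIST2, 2 of 2 of HIST3 and 1 of 1 of HIST4. Over all genes tested 4.67% fell. Differences between clusters were not tested, and HIST3H2BB of HIST3 was past the threshold in only 4 of 14 alternatives.

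**Figure D2:**
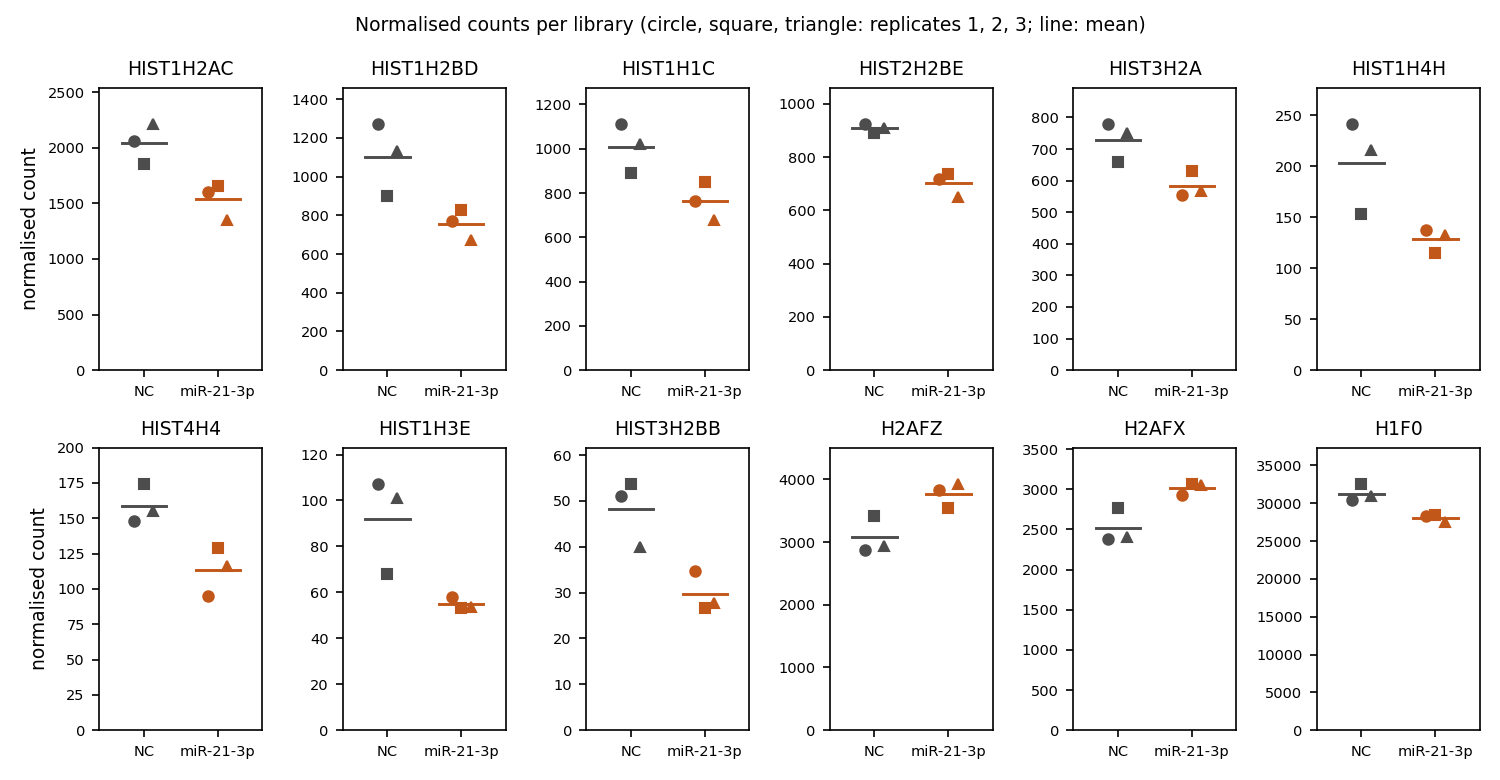
Normalised count in each library for the 9 replication-dependent genes that fell and for the replacement genes H2AFZ, H2AFX and H1F0; circles, squares and triangles are replicates 1, 2 and 3 and lines are group means (n = 3). The groups do not overlap in any of the 12 panels, and H2AFZ and H2AFX run opposite to the rest.

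**Figure D3:**
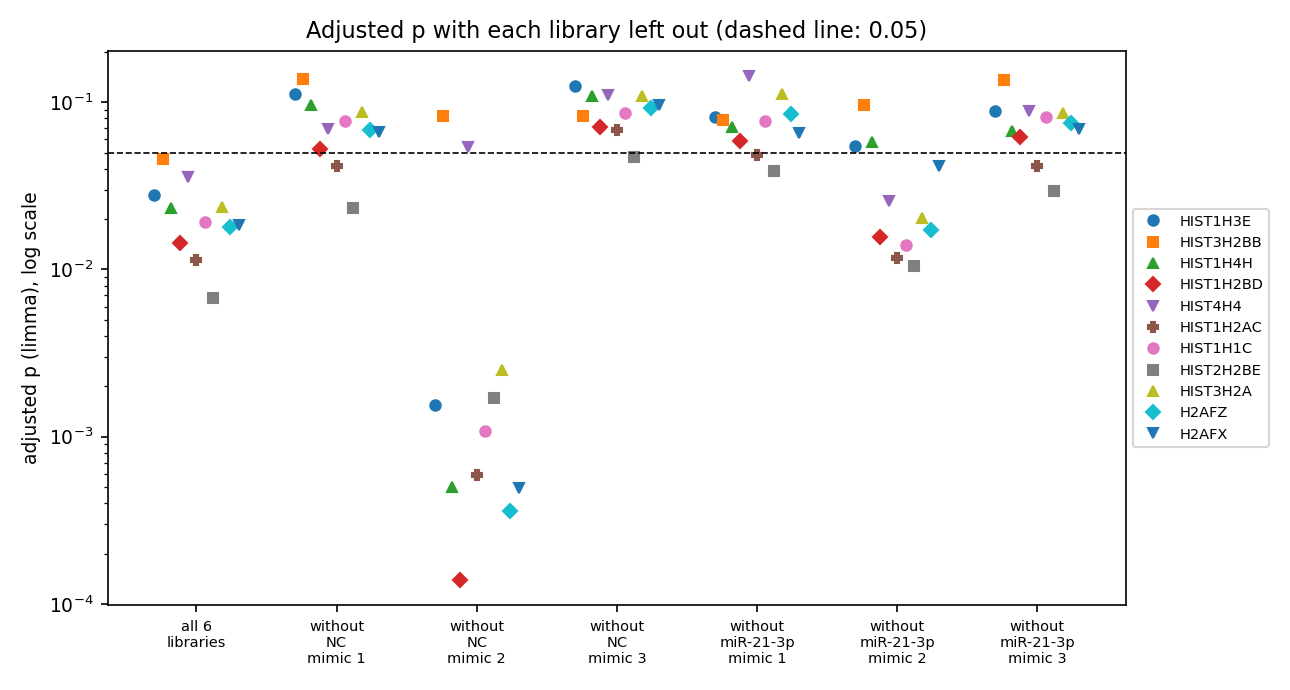
Adjusted p from limma (log axis) for the 9 replication-dependent genes that fell and for H2AFZ and H2AFX, with all 6 libraries and with each library left out. HIST2H2BE stays under the dashed line at 0.05 throughout, and most p-values are lowest without NC mimic replicate 2.

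The stem-loop itself was looked for in the annotated transcripts, since it marks the place where the usual histone mRNA ends. The motif searched on the transcript strand was GGC, any 3 bases, TTT, any 4 bases and GCC, with its first 6 bases pairing with its last 6 around a loop of 4 bases. In GENCODE release 29, 39 of 19669 names of protein-coding genes (0.198%) had it in a coding transcript, and 30 of the 39 were replication-dependent histone names. The release has 70 protein-coding names of that kind, so the search found the motif in 30 of 70. Of the members, 16 of 21 replication-dependent genes and 1 of 11 replacement genes, H2AFX, had it. The sequences below, from GENCODE release 29, are given 5′ to 3′ with the stem in capitals and the loop in lower case, to show how alike they are between gene types and that H2AFX shares the element.
HIST1H2AC: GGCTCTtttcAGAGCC
HIST1H2BD: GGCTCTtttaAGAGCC
HIST1H4H: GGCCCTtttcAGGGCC
HIST1H4I: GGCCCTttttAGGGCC
H2AFX: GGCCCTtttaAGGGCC
The stem-loops of HIST1H2AC and HIST1H2BD differ only in the loop, as do those of HIST1H4H, HIST1H4I and H2AFX. A match is a description of letters, not a measured processing site, and the 5 members without one (HIST1H1C, HIST1H3E, HIST1H2AG, HIST1H2BK and HIST1H2BJ) lack only these letters in the annotated transcripts.

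For most members at least 1 annotated transcript ran on beyond the stem-loop. On the transcript of each gene that ran farthest, there were 39 to 1917 bases from its end to the annotated 3′ end (median 681, 16 replication-dependent members), and 14 of 16 had more than 100. Other transcripts ended sooner, 5 bases after the stem-loop for HIST1H2BN and 18 for HIST1H4H. HIST2H2BE had 1729 bases beyond the stem-loop, HIST1H2AC 1114 and HIST3H2BB 1917, while HIST1H2BD had 39 on the 1 of its 2 coding transcripts that has the stem-loop. A poly(A) signal, searched as AATAAA in the last 50 bases on the transcript strand, was present for 11 of 21 replication-dependent and 6 of 11 replacement members, and for 69.9% of all protein-coding gene names. Reads were counted per gene, so the values do not separate transcripts that end at the stem-loop from those that run on. Of the 9 genes that fell, 7 had the stem-loop, and of the 2 replacement genes that rose 1 had it.

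**Figure D4:**
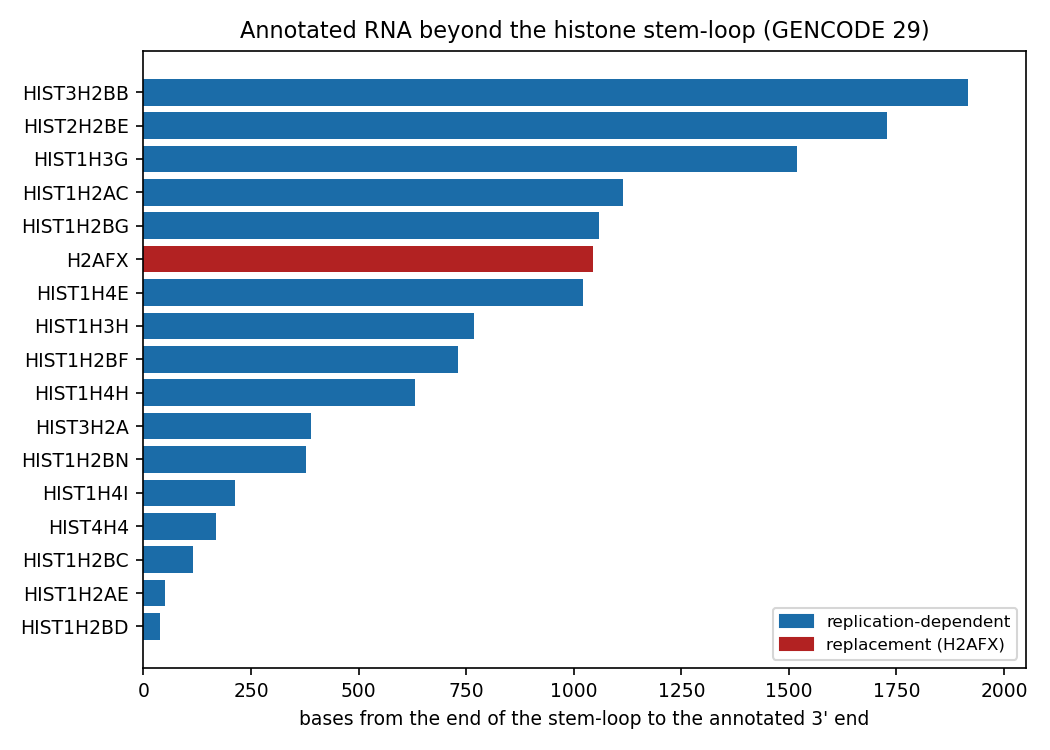
Bases between the end of the stem-loop and the annotated 3′ end for the 17 members whose GENCODE transcripts have the motif (the transcript that runs farthest was taken). Blue bars are replication-dependent genes, from 39 for HIST1H2BD to 1917 for HIST3H2BB, and the red bar is the replacement gene H2AFX at 1044.

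Of the 6 replacement members of the H2A family 5 had fold changes above 0, and 2 of them passed the test as higher, against 6.15% of all genes. H2AFZ (identifier ENSG00000164032) encodes H2A.Z, which replaces H2A near active promoters and elsewhere. It had 2880, 3420 and 2930 normalised counts in NC mimic replicates 1 to 3 and 3830, 3540 and 3920 in miR-21-3p mimic replicates 1 to 3. The groups did not overlap, although NC mimic replicate 2 came near to miR-21-3p mimic replicate 2, and the log2 fold change was 0.29 (SE 0.066, adjusted p = 0.018). H2AFX (identifier ENSG00000188486) encodes H2A.X, which is phosphorylated at DNA breaks, and had 2380, 2770 and 2410 against 2930, 3060 and 3050 normalised counts. It too had groups apart, with a log2 fold change of 0.26 (SE 0.059, adjusted p = 0.018). H2AFX is known to give both a stem-loop mRNA and a polyadenylated mRNA. H2AFZ lost its call without NC mimic replicates 1 and 3 (adjusted p = 0.068 and 0.0926) and without miR-21-3p mimic replicates 1 and 3 (0.0846 and 0.0756). H2AFX lost its call without NC mimic replicates 1 and 3 (adjusted p = 0.0665 and 0.0958) and without miR-21-3p mimic replicates 1 and 3 (0.0655 and 0.069). H2AFV, which encodes another form of H2A.Z, had 4020, 4670 and 4490 against 4880, 4650 and 5130 normalised counts. Its groups overlapped (log2 fold change 0.16, 95% interval 0.027 to 0.28, adjusted p = 0.11; 0.0245 without NC mimic replicate 2). H2AFY and H2AFY2 encode macroH2A proteins, which carry a large additional domain. H2AFY had 3840, 3910 and 3820 against 4070, 4050 and 4410 normalised counts, without overlap but short of the threshold (log2 fold change 0.11, adjusted p = 0.13). H2AFY2 had 315, 410 and 364 against 452, 381 and 448 normalised counts, with overlap (0.24, adjusted p = 0.15, and 0.0307 without NC mimic replicate 2). H2AFV and H2AFY2 were each past the threshold in 1 of 15 alternatives, without that library. H2AFJ, at 2520 to 2820 normalised counts over the 6 libraries, gave −0.040 (95% interval −0.15 to 0.070).

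H3F3A and H3F3B encode H3.3, the H3 form deposited outside replication, and H3F3C encodes the related variant H3.5. None of these genes passed the test by limma, edgeR or DESeq2, or had an unadjusted limma p under 0.05. H3F3B had 10600, 11700 and 11900 normalised counts with the NC mimic and 12000, 12800 and 12000 with the miR-21-3p mimic. The groups were apart by a small margin (log2 fold change 0.11, 95% interval −0.0075 to 0.22, adjusted p = 0.20). H3F3A had 488 to 545 normalised counts over the 6 libraries (0.055, 95% interval −0.092 to 0.20) and H3F3C 462 to 500 (0.034, 95% interval −0.11 to 0.18). Among the linker histones outside the clusters, H1F0 is known to accumulate in cells that stop dividing. It had 30400, 32500 and 30900 against 28300, 28500 and 27500 normalised counts. Every miR-21-3p mimic library was lower, but by limma the gene was just short of the threshold (log2 fold change −0.15, 95% interval −0.26 to −0.050, adjusted p = 0.057), while edgeR (adjusted p = 0.045) and DESeq2 (adjusted p = 0.014) called it, with a range of 0.014 to 0.17 over all alternatives. H1FX had 4540 to 5150 normalised counts (0.019, 95% interval −0.096 to 0.13). H1FX-AS1 had 146 to 172 normalised counts (0.10, adjusted p = 0.56); the strand setting of the read counting is not given in the sources used here, so reads of H1FX and of its antisense partner may not be cleanly separated.

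Histone genes resemble each other closely, and how reads with more than 1 match were counted is not given in the sources used here. In GENCODE release 29, 13 of 21 replication-dependent and 6 of 11 replacement members shared at least 1 word of 50 bases with a transcript of another gene. The share of words so affected was mostly low, with a median of 0.562% for the replication-dependent and 0.319% for the replacement members. It was 74.1% for HIST1H2BK, 21.8% for H3F3C, which shared most with H3F3B, and 12.9% for H3F3A, which shared most with a pseudogene. By this share, counts of these 3 genes may be the least certain. The share of HIST1H2BK rests on an annotated transcript of only 381 bases, and reads with more than 1 match were not measured. The word share was 6.45% for H2AFZ, all with the pseudogene H2AFZP3, which was excluded from the members. H2AFZP3 had 68.8, 77.3 and 50.8 against 89.7, 87.1 and 81.7 normalised counts; the other 2 excluded pseudogenes, H3F3AP1 and H3F3BP2, were at 0 in all 6 libraries. Apart from HIST1H2BK, all replication-dependent members shared less than 10% of their words.

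Neighbouring H2A and H2B genes often stand head to head and share the DNA between their start sites, and 4 such pairs had both genes among the members. HIST3H2A and HIST3H2BB, with 230 bases between their start sites, were both past the threshold with all 6 libraries, HIST3H2BB in only 4 of 14 alternatives. In the pair HIST1H2AC and HIST1H2BC (246 bases apart) HIST1H2AC fell, while HIST1H2BC had 58.4, 68.0 and 93.7 against 63.2, 70.7 and 50.3 normalised counts (log2 fold change −0.24, adjusted p = 0.45). The difference within this pair was not tested. HIST1H2AG and HIST1H2BJ (248 bases apart) gave −0.26 and −0.013, and HIST1H2AE and HIST1H2BG (233 bases apart) −0.30 and −0.40, and none of these 4 genes passed the threshold with all 6 libraries (HIST1H2AG and HIST1H2BG did without NC mimic replicate 2, adjusted p = 0.0434 and 0.0309).

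Promoter windows of 300 bases, 250 before and 50 after the start site, were taken from RefSeq (build GRCh38.p14), which gave windows for all 21 replication-dependent and 9 of 11 replacement members, without H1F0 and H3F3C. Each motif was searched on both strands, and none of the motifs contains another. CCAAT, the binding motif of NF-Y, was in a window of 18 of 21 replication-dependent and 7 of 9 replacement genes, beside 39.7% of the 27305 genes with a window. ATTTGCAT, the octamer bound by POU2F1 and known from H2B promoters, was in 9 of 21 replication-dependent genes and 1 of 9 replacement genes, beside 2.19% of all genes, and in 6 of 9 H2B genes. The octamer of an H2A gene in a head-to-head pair lies in DNA that its H2B partner shares. TATAAA was in 12 of 21 and 4 of 9, beside 14.0% of all genes. AAACACA, the box known from H1 promoters, was in 1 of 21, HIST1H1C, and 1 of 9, H3F3A, beside 6.94%. TTCCCGC, a core of E2F motifs, was in 2 of 21 and 1 of 9, beside 7.82%. The windows of HIST2H2BE (chr1:149886633-149886932), HIST1H1C (chr6:26056421-26056720) and H2AFZ (chr4:99950226-99950525), all on the minus strand, are shown as a core histone gene and a linker histone gene that fell and a replacement gene that rose. They read 5′ to 3′ along the gene, and capitals mark the motifs named above on either strand.
HIST2H2BE: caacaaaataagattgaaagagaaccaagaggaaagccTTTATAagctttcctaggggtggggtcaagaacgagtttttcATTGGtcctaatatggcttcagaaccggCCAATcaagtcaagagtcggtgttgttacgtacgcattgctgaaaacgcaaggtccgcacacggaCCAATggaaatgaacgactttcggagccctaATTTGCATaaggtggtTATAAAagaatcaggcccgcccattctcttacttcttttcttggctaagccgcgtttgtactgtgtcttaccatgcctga
HIST1H1C: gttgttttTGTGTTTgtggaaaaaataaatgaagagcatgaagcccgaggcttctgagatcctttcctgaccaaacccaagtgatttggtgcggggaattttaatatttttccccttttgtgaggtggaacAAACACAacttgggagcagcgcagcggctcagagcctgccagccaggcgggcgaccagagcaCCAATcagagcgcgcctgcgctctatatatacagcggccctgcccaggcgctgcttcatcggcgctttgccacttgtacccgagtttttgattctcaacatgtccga
H2AFZ: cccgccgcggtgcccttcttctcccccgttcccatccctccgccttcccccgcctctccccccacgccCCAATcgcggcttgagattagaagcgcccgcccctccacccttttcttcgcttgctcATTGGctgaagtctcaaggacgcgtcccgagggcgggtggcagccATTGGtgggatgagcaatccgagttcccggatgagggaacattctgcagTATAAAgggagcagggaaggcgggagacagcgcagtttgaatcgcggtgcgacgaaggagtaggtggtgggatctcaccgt
Counted from the start site, HIST2H2BE holds the octamer at −46 and TATAAA at −30, with CCAAT further upstream on both strands. HIST1H1C holds the H1 box at −119 and, on the opposite strand, at −242, and CCAAT at −57. H2AFZ holds CCAAT on both strands and TATAAA at −31. Whether the motifs go with the direction of change was not tested, and a match does not say whether a factor was bound.

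Genes that make and process histone mRNA were looked at as a companion list. Of 36 names listed 34 were analysed. The other 2, ARS2 and ZFP100, are older names of SRRT and ZNF473, which were among the 34. By limma 2 rose and 0 fell, against 6.15% and 4.67% of all genes. None fell at an unadjusted p under 0.05 or by edgeR or DESeq2. The median log2 fold change was 0.10, with 28 of 34 above 0. The miR-21-3p mimic libraries lay above the NC mimic libraries for 9 of 34 genes and below them for 1. Over all genes tested these shares were 16.5% and 14.8%. LSM11, a part of the U7 snRNP that guides cleavage after the stem-loop, had 693, 671 and 689 normalised counts with the NC mimic and 810, 812 and 786 with the miR-21-3p mimic. Both groups were tight and apart (log2 fold change 0.23, SE 0.057, adjusted p = 0.026). CPSF2, a subunit of the cleavage complex, had 2530, 2680 and 2560 against 2930, 2940 and 3020 normalised counts (0.19, SE 0.045, adjusted p = 0.020), again apart. LSM11 lost its call without NC mimic replicates 1 and 3 (adjusted p = 0.0546 and 0.0962) and without miR-21-3p mimic replicates 1, 2 and 3 (0.111, 0.0567 and 0.0703). CPSF2 lost its call without NC mimic replicates 1 and 3 (adjusted p = 0.0582 and 0.0963) and without miR-21-3p mimic replicates 1 and 3 (0.0798 and 0.0808). With the replicate number as a block both calls were lost as well (adjusted p = 0.0643 for LSM11 and 0.0521 for CPSF2). SLBP had 1020, 1180 and 1090 against 1230, 1240 and 1310 normalised counts. Its groups did not overlap, but it missed the threshold (0.20, 95% interval 0.068 to 0.34, adjusted p = 0.055; 0.0094 without NC mimic replicate 2). NPAT, the coactivator of the replication-dependent genes, had 1230, 1420 and 1260 against 1250, 1290 and 1310 normalised counts (−0.020, 95% interval −0.15 to 0.11). CASP8AP2, which works with NPAT at the histone clusters, had 1400, 1630 and 1490 against 1660, 1600 and 1630 (0.12, adjusted p = 0.22, and 0.0422 without NC mimic replicate 2). SLBP and CASP8AP2 were each past the threshold in 1 of 15 alternatives, without that library. The number that rose was 9 without NC mimic replicate 2, 2 without miR-21-3p mimic replicate 2 and 0 without any one of the other 4 libraries.

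Among 35 histone chaperones and chromatin assembly genes, 11 rose and 1 fell by limma, against 6.15% and 4.67% of all genes, and the median log2 fold change was 0.14. CENPA, the H3 form of centromeres, had 891, 974 and 884 normalised counts against 1180, 1150 and 1130, with groups apart (log2 fold change 0.33, SE 0.057, adjusted p = 0.0075). Its loading factor HJURP (0.36, adjusted p = 0.020) and the H3 and H4 chaperones ASF1A (0.36, adjusted p = 0.016) and ASF1B (0.32, adjusted p = 0.023) rose as well. So did the H2A.Z chaperone ANP32E (0.31, adjusted p = 0.021) and TTF2 (0.30, adjusted p = 0.015). With CENPA, these genes had the smallest p of those that rose. TTF2 is a termination factor and not a histone chaperone, but was part of the list. The 1 that fell was UBN2, a subunit of the HIRA complex that deposits H3.3 (−0.22, adjusted p = 0.037); it is named here after its values were seen. The number that rose was 17 without NC mimic replicate 2, 11 without miR-21-3p mimic replicate 2, 0 without NC mimic replicate 3 and 1 without any one of the other 3 libraries. CENPA lost its call without NC mimic replicate 3 (adjusted p = 0.0528). TTF2 lost its call without NC mimic replicates 1 and 3 (adjusted p = 0.0575 and 0.0791) and without miR-21-3p mimic replicates 1 and 3 (0.0677 and 0.0677). ASF1A lost its call without NC mimic replicates 1 and 3 (adjusted p = 0.0561 and 0.0796) and without miR-21-3p mimic replicates 1 and 3 (0.0716 and 0.0691). HJURP lost its call without NC mimic replicates 1 and 3 (adjusted p = 0.0733 and 0.09) and without miR-21-3p mimic replicates 1 and 3 (0.0772 and 0.0848). ANP32E lost its call without NC mimic replicates 1 and 3 (adjusted p = 0.0532 and 0.0756) and without miR-21-3p mimic replicates 1 and 3 (0.101 and 0.0772). ASF1B lost its call without NC mimic replicates 1 and 3 (adjusted p = 0.0847 and 0.0897) and without miR-21-3p mimic replicates 1 and 3 (0.0762 and 0.097). UBN2 lost its call without NC mimic replicates 1 and 3 (adjusted p = 0.117 and 0.106) and without miR-21-3p mimic replicates 1, 2 and 3 (0.0945, 0.0533 and 0.135).

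S phase genes, which in cycling cells go with the usual histone mRNA without a poly(A) tail, ran opposite to the replication-dependent values here. These libraries sample mainly the polyadenylated transcripts, so the total mRNA of the replication-dependent genes was not measured. Of 25 listed genes 24 were analysed, and 15 rose and 0 fell by limma, against 6.15% and 4.67% of all genes. None fell at an unadjusted p under 0.05 or by edgeR or DESeq2, and the median log2 fold change was 0.31. RRM2, a subunit of ribonucleotide reductase, had 1340, 1980 and 1550 normalised counts with the NC mimic and 2650, 2620 and 3060 with the miR-21-3p mimic. The groups were far apart (log2 fold change 0.79, SE 0.11, adjusted p = 0.0033). E2F2, a transcription factor of cell cycle genes, had 1560, 1710 and 1520 against 2150, 2180 and 2270 normalised counts (0.46, SE 0.055, adjusted p = 0.0015). MCM6 of the replicative helicase (0.58, adjusted p = 0.011), TYMS, which makes thymidylate (0.43, adjusted p = 0.0088), CCNA2, the cyclin of S phase (0.39, adjusted p = 0.0069), and RRM1 (0.33, adjusted p = 0.015) rose as well. The calls of RRM2, E2F2 and CCNA2 held without any one of the 6 libraries. TYMS lost its call without NC mimic replicate 3 (adjusted p = 0.0538). MCM6 lost its call without NC mimic replicate 3 (adjusted p = 0.0641) and without miR-21-3p mimic replicates 1 and 3 (0.0569 and 0.051). RRM1 lost its call without NC mimic replicate 3 (adjusted p = 0.0654) and without miR-21-3p mimic replicates 1 and 3 (0.0601 and 0.0636). The number that rose was 6 without NC mimic replicate 1, 22 without NC mimic replicate 2, 3 without NC mimic replicate 3, 4 without miR-21-3p mimic replicate 1, 19 without miR-21-3p mimic replicate 2 and 4 without miR-21-3p mimic replicate 3. Summed over the 24 genes, the NC mimic libraries held 43158, 53151 and 45148 normalised counts and the miR-21-3p mimic libraries 57675, 55687 and 62600. NC mimic replicate 2 was thus highest of its group for the S phase genes and lowest for the replication-dependent histones, and miR-21-3p mimic replicate 3 was highest and lowest of all 6. The part of the S phase genes in the histone values was not tested.

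**Figure D5:**
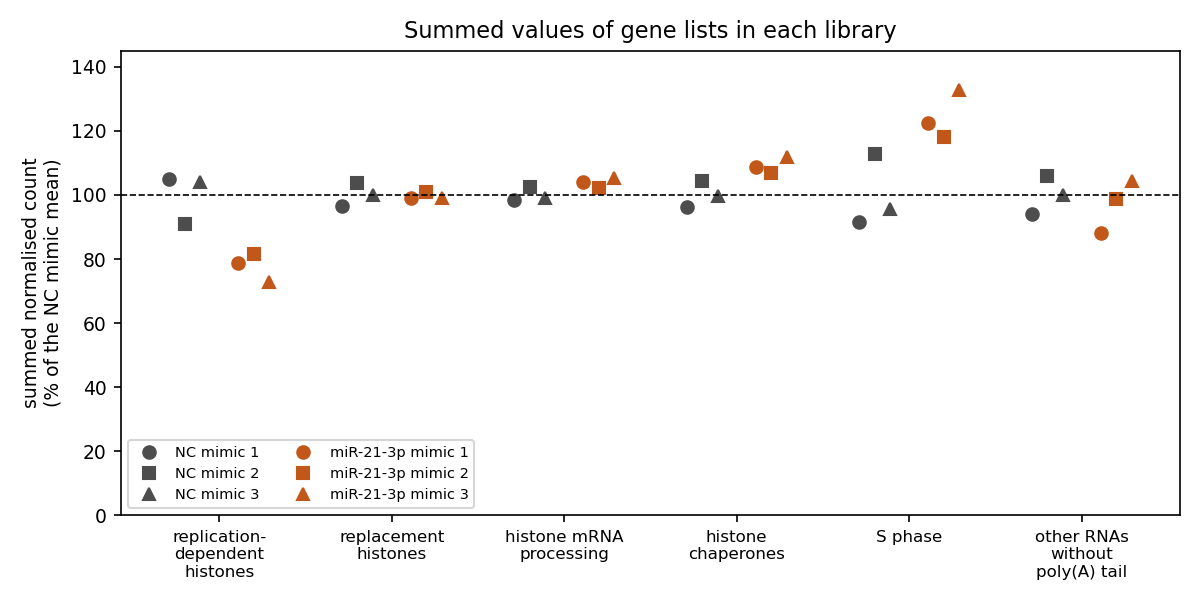
Summed normalised counts of 6 gene lists in each library, as a percentage of the NC mimic mean of that list; grey points are NC mimic and orange points miR-21-3p mimic replicates (n = 3 each). The replication-dependent histones lie at 72.7% to 81.7% in the miR-21-3p mimic libraries and the S phase genes at 118% to 133%. The replacement histones lie there at 99.1% to 101%. In that sum H1F0, lower in every miR-21-3p mimic library, offsets the other 10 genes. Those 10 genes sum higher without overlap, a sum taken after the values were seen.

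RNA without a poly(A) tail can be carried into poly(A) selected libraries, and some small noncoding and ribosomal RNA genes were looked at for it. Their values do not show how much histone mRNA without a tail was carried over. Of 33 such genes 25 were at 0 in all 6 libraries and 3 passed the filter. SCARNA17 had 273, 306 and 306 normalised counts with the NC mimic and 285, 275 and 319 with the miR-21-3p mimic, RNA28S5 142, 135 and 146 against 88.7, 161 and 121, and RN7SL2 51.1, 84.5 and 43.9 against 61.2, 54.3 and 76.3. In each the groups overlapped (limma adjusted p = 0.95, 0.42 and 0.73). The list summed to 469, 528 and 499 against 439, 492 and 520 normalised counts, a ratio of the means of 0.97. The sum rests mainly on these 3 genes, none of them a histone mRNA, and the part of RNA without a tail in the histone values was not tested.

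The keratinocyte label was checked on 16 marker genes, of which 14 were analysed. KRT5 had 123000 to 139000 normalised counts over the 6 libraries, and none of the 14 was at 0. Their sum was 395913, 372200 and 392896 in the NC mimic libraries and 386401, 401855 and 369552 in the miR-21-3p mimic libraries, with overlap. KRT6A rose (log2 fold change 0.34, adjusted p = 0.0020) and ITGB4 fell with overlapping groups (−0.26, adjusted p = 0.038), and both are named here after their values were seen. ITGB4 lost its call without NC mimic replicates 1 and 3 (adjusted p = 0.142 and 0.134) and without miR-21-3p mimic replicates 1 and 3 (0.145 and 0.138). SFN had 18900, 19600 and 18300 against 20600, 21000 and 21400 normalised counts, without overlap but short of the threshold by limma (log2 fold change 0.15, adjusted p = 0.0545). It was past it by DESeq2 (0.0293), with scaling by library size alone (0.0466) and without NC mimic replicate 2 (0.0239). Without that library TP63 (log2 fold change −0.16, adjusted p = 0.0468) and LAMB3 (−0.22, adjusted p = 0.0236) were also called lower, against adjusted p = 0.102 and 0.189 with all 6 libraries. These 3 genes too are named after their values were seen. Of the markers of other cell types, COL1A1 of fibroblasts had 560, 390 and 478 against 372, 378 and 364 normalised counts, lower in every miR-21-3p mimic library. By limma it was short of the threshold (log2 fold change −0.34, adjusted p = 0.063; 0.00179 without NC mimic replicate 2), as by edgeR (adjusted p = 0.0504), while DESeq2 called it lower (adjusted p = 0.0276), with a range of 0.00179 to 0.211 over all alternatives. VWF of endothelium had 712 to 801 normalised counts and PMEL of melanocytes 120 to 155, with overlap between the groups. The other 5 fibroblast, 2 endothelial and 3 melanocyte markers and all 5 leukocyte markers were not analysed here. The part of COL1A1 expressing cells in the histone values was not tested.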

How the data were processed

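Poly(A) RNA of 6 HaCaT libraries was sequenced, 3 per group; per the labels, total RNA was isolated with a mirVana kit and libraries were made with a stranded mRNA kit, while the study's methods speak of small RNA libraries. The submitters' processing notes name bcl2fastq 2.18.12, cutadapt 1.15, TopHat2 2.1.1, featureCounts (Subread 1.5.2) and DESeq2; the genome build, annotation and strand setting are not given in the sources used here. The deposited values are a signal per gene, read counts that the authors divided by a size factor per library and rounded to 3 significant digits. Each library's values under 100 (3811 to 3924 values) were whole multiples of 1 read, within 0.1 read, for 100.0% of them. Whole reads could thus be recovered for these values. Larger values were not checked in this way, and reads recovered from them are approximate where the rounding exceeds 1 read.

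The planned test for raw counts was edgeR; since the values are normalised, the planned substitute, limma 3.58.1 with a trend (R 4.3.3) on log2(value + 1), was used for genes with a mean of at least 10, with Benjamini-Hochberg adjustment over all genes tested and a threshold of 0.05. Fold changes on this scale understate the change of low genes. The edgeR 4.0.16 quasi-likelihood test on recovered reads, which called 897 genes higher and 784 lower, was added after the values were seen; DESeq2 1.42.0 on the same reads, which called 877 higher and 715 lower, was planned. The limma, edgeR and DESeq2 tests, without the block or other scalings, were tested on simulated data with a common dispersion for all genes. Changed genes were placed there only at means above those of HIST1H3E (73.5 normalised counts) and HIST3H2BB (39.0). The simulation therefore does not cover changes at such low means. Other alternatives were pseudocounts of 0.5 and 5, no filter, a mean of at least 50, scaling by library size and by TMM, the replicate number as a block, and leaving out each library. TMM scaling was also chosen after seeing the data. The members and lists were chosen with earlier results of these data known, so no test was made over a list. Genes named by rule were all replacement members, the 12 replication-dependent members with the highest means and those past the threshold. The rule added NPAT, CASP8AP2, SLBP and H1FX-AS1. From the histone mRNA processing, chaperone and S phase lists it took up to 6 genes past the threshold with the smallest p. HIST1H2BF, UBN2, KRT6A, ITGB4, SFN, TP63 and LAMB3 were named outside the rule, after their values were seen. Pair partners and other markers, such as HIST1H2BC and COL1A1, were also named outside the rule. Stem-loops and shared words were searched in GENCODE release 29 transcripts matched by gene name; 8 member identifiers of the table are not in that release.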

Additional observations from a re-analysis of the deposited data

How the results depend on the processing

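Leaving out a library changed the counts most. Without each library in turn, genes higher ranged from 98 to 1629 and lower from 81 to 1334, replication-dependent histones lower from 1 to 10 and replacement histones higher from 0 to 4; fewer samples entered these fits. The median log2 fold change of the replacement histones ranged from 0.061 to 0.12. Histone mRNA processing genes higher ranged from 0 to 9, chaperones higher from 0 to 17 and lower from 0 to 1, and S phase genes higher from 3 to 22. DESeq2 and edgeR each called 1 replacement histone lower, where limma called 0; the cause was not tested. With the replicate block, 685 genes were higher and 517 lower, and 9 replication-dependent histones were lower, 8 of them shared with the fit without the block, while 0 histone mRNA processing genes were higher. Deviations of same-numbered libraries correlated at −0.14, −0.30 and −0.41 over 10682 genes. The next counts, of calls and of signs, cover only the genes named by rule. They leave out the other genes in the text, such as HIST1H2BF, SFN and COL1A1, which gained a call under other settings. For the genes named by rule, the 9 other settings kept the side of the threshold in 378 cases, lost the call in 6 and gained it in 2. Leaving out a library kept it in 174, lost it in 79 and gained it in 5. The sign of the fold change differed in 0 cases under the other settings and in 5 without a library, none of them past the threshold: HIST1H2BJ (0.097 without NC mimic replicate 1 and 0.099 without miR-21-3p mimic replicate 2), H2AFJ (0.011 without miR-21-3p mimic replicate 1), H1FX (−0.026 without miR-21-3p mimic replicate 2) and NPAT (0.044 without NC mimic replicate 2). With 3 libraries per group, HIST3H2BB, with a mean of 39.0 normalised counts, had a 95% interval of −1.11 to −0.25. Small changes of members at such counts may therefore have been missed, which was not tested.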
